A study of Mus musculus with 9 samples.

Results

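Long non-coding RNAs (lncRNAs) are transcripts that the annotation lists as having no protein product. The abundant ones were taken here as the genes with the biotype lncRNA in the deposited table and a plain mean of at least 200 normalized reads over the 9 libraries. This rule gave 53 lncRNAs among 21049 genes in all, of which 3103 were lncRNAs and 8844 genes of any kind reached the same mean. The mean of the values themselves chose the members, so their abundance is a description and carries no test. The 4 members just inside the limit were E430024I08Rik (mean 208.9), B130024G19Rik (207.6), 2010320M18Rik (207.2) and 2610507I01Rik (202.7), and the 4 lncRNAs just outside it were 2810001A02Rik (196.4), 9230112J17Rik (192.7), Gm17396 (191.8) and Dleu2 (189.9).

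The RNA came from smooth muscle cells sorted by fluorescence from mouse lung, in 3 groups of 3 libraries, to set the pulmonary smooth muscle types side by side. For total_SMC all pulmonary smooth muscle was taken, that of veins too, out of tg-Acta2-GFP mice, in which GFP comes from an Acta2 transgene. For PASMC the smooth muscle of pulmonary arteries was sorted out of the line ASMC-effector, whose genotype was Cspg4/Acta2-CreER/R26-GFP. For BSMC bronchial smooth muscle was sorted out of the line NVSMC-effector, whose genotype was Chrm2/Acta2-CreER/R26-GFP. In both effector lines GFP comes from a reporter at the Rosa26 locus. Tamoxifen, 0.75 mg for each 10 g of body weight on 3 days, is the treatment in the labels of all 9 libraries. Ages were not among the labels used here. Each population came from its own mouse line and its own sort, so these cannot be told apart in any comparison below, and fewer cells of a type cannot be told apart from less RNA per cell. Nothing in the labels says that replicates were separate animals. The p-values weigh group differences against the spread within groups, which may then be technical, so they may not extend to other animals.

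As background, lncRNAs act in several ways. Some build or occupy nuclear bodies, some bind and titrate proteins or microRNAs, some act on the gene next to them, and some are hosts whose introns or exons are cut into microRNAs or small nucleolar RNAs (snoRNAs). In smooth muscle, Carmn is known as a cofactor of myocardin, the transcription factor that drives the contractile program, and it lies beside the genes for miR-143 and miR-145.

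Depth was read as the reads implied by the spacing of the rounded values, 6.39 to 10.0 M per library. BSMC replicates 3 and 1 were the shallowest, at 6.39 and 7.14 M. Of 9 smooth muscle markers, 9 were measured, and their summed level per M normalized reads was 3052 to 3346 in total_SMC, 3663 to 4210 in PASMC and 3960 to 4884 in BSMC. Mesothelial markers (6 of 6 measured) summed to 538 to 662 per M in total_SMC, 7.18 to 15.9 in PASMC, where Muc16 was at 0 in all 3 libraries, and 38.6 to 118.2 in BSMC. Leukocyte markers (10 of 10 measured) summed to 377 to 481 per M in total_SMC, 305 to 322 in PASMC, where Ptprc and Cd3e were at 0 in all 3 libraries, and 1124 to 1651 in BSMC. Endothelial markers (9 of 9 measured) summed to 1382 to 1711 in total_SMC, 805 to 1025 in PASMC and 1034 to 1120 in BSMC. Fibroblast markers (10 of 10 measured) summed to 6367 to 7065 in total_SMC, 4563 to 5105 in PASMC and 3804 to 4667 in BSMC. Epithelial markers (10 of 10 measured) summed to 424 to 549 in total_SMC, 569 to 678 in PASMC and 577 to 693 in BSMC. Erythroid markers (5 of 5 measured) summed to 8.39 to 15.3 in total_SMC, 0.810 to 2.34 in PASMC and 31.2 to 70.3 in BSMC. The part of other cell types in the lncRNA differences below was not tested.

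Together the 53 lncRNAs took 0.221% ± 0.020 of the table's reads in total_SMC, 0.257% ± 0.0068 in PASMC and 0.301% ± 0.0196 in BSMC (SD, n = 3 each). All lncRNAs of the table took 0.624%, 0.758% and 0.971% in total_SMC, PASMC and BSMC. Member means ran from 202.7 for 2610507I01Rik to 1248 for Peg13, with a median of 297, and single values ran from 77 to 1733. The members lay on 20 chromosomes. For 44 members an exon length was found in GENCODE release M21, and their implied reads per exonic base ran from 0.011 to 0.593, so 0 members passed 1 read per base.

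Per length the order changed. Peg13, Malat1 and Oip5os1 had the highest plain means, at 1248, 1180 and 1166 normalized reads. Per kilobase of exon, Snhg18 stood at 600 reads per kb, AW112010 at 401 and Mir22hg at 364, against 264 for Peg13, 169 for Malat1 and 140 for Oip5os1. Mir100hg, a long host, had 10.8 reads per kb.

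Abundance was not shared evenly between the groups. A mean of at least 200 was reached in all 3 groups by 33 members, in 2 groups by 17 and in 1 group by 3 (2610035D17Rik, 2010320M18Rik and 2610507I01Rik). Without their highest group 12 members would have fallen under 200, so these had to differ to be counted, and their differences from that group, tests included, were partly set by the rule and are given as a description. Their highest group was total_SMC for AW112010, ENSMUSG00000120913, Gm46430 and E430024I08Rik, PASMC for 4921531C22Rik and 2610507I01Rik, and BSMC for Gm17501, ENSMUSG00000120482, 2810002D19Rik, 2610035D17Rik, B130024G19Rik and 2010320M18Rik. The highest group mean was in total_SMC for 16 members, in PASMC for 8 and in BSMC for 29, and the lowest was in total_SMC for 30, in PASMC for 13 and in BSMC for 10. The median coefficient of variation between replicates was 13.5% in total_SMC, 11.7% in PASMC and 18.7% in BSMC.

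**Figure D1:**
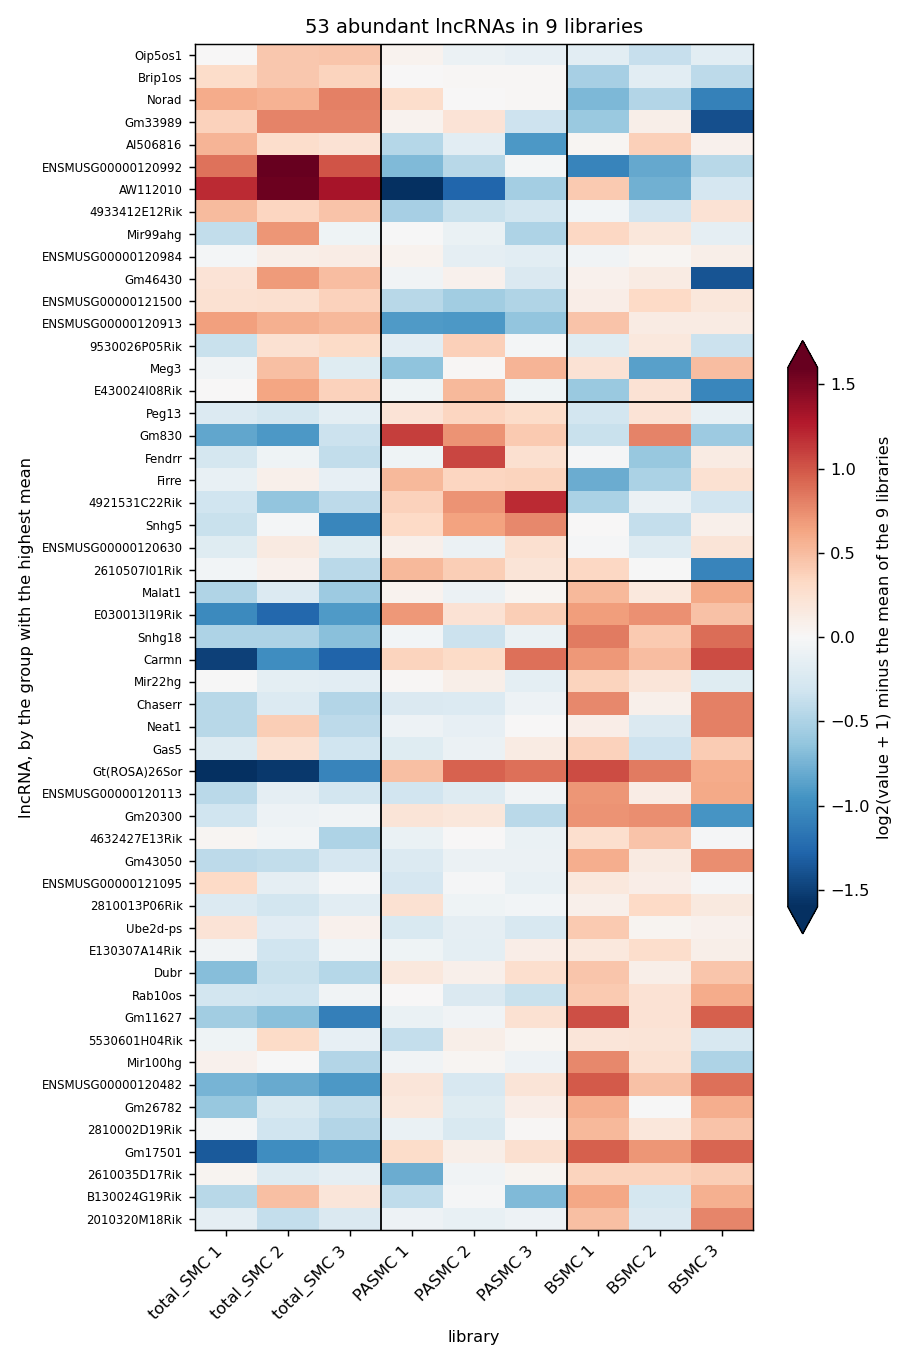
Levels of the 53 lncRNAs (rows, grouped by the group with the highest mean) in the 9 libraries (columns), as log2(value + 1) minus the member's mean over all libraries. The block of 29 rows at the bottom is highest in BSMC, and Gt(ROSA)26Sor, Carmn and E030013I19Rik are dark blue in all 3 total_SMC libraries.

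In total_SMC against PASMC, 6 members rose and 11 fell, where 16.2% of all 15647 genes tested were called, 9.39% higher and 6.83% lower. A gene was called at an adjusted p under 0.05 in limma's test of log2(value + 1), with Benjamini-Hochberg adjustment over all genes tested. The median log2 fold change of the members was -0.10, against 0.03 over all genes. Of 8784 protein-coding genes with a mean of at least 200, 16.6% were called, and of 1155 other lncRNAs tested 127 were called. The libraries of the groups did not overlap in 30 members, against 40.5% of all genes. Without PASMC replicate 3 the count of called members was 11 in place of 17, and the count that fell was 6 without it, 6 without total_SMC replicate 3, 7 without PASMC replicate 1 and 7 without PASMC replicate 2. The share of all genes called, in either direction, was 12.2%, 10.4%, 11.7% and 11.2% in these settings. Of the 17 calls 11 held in all 20 alternative settings, and those of Snhg5, ENSMUSG00000120482, AI506816, Gm11627, Dubr and Peg13 were each lost without at least 1 single library. Among the calls, AW112010, ENSMUSG00000120913 and 4921531C22Rik passed the mean of 200 only through a group compared here, so the rule set part of theirs.

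In total_SMC against BSMC, 6 members rose and 15 fell, where 41.9% of all genes were called, 23.7% higher and 18.2% lower. The members' share of calls was close to this background, and their median log2 fold change was -0.23, against 0.05 over all genes. Coding genes of the same mean were called in 46.4% and the other lncRNAs in 30.1%. The libraries did not overlap in 27 members, against 50.5% of all genes. Of the 21 calls 17 held in all 20 alternative settings. Those of Oip5os1, 2810002D19Rik, Rab10os and Gm26782 were each lost without at least 1 single library. Among the calls, AW112010, Gm17501, ENSMUSG00000120482 and 2810002D19Rik passed the mean limit only through a group compared here, so the rule set part of theirs.

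In PASMC against BSMC, 3 members rose and 10 fell, where 22.1% of all genes were called, 13.2% higher and 8.88% lower. The median log2 fold change was -0.21 in the members and 0.05 over all genes. Coding genes of the same mean were called in 24.2%, and the other lncRNAs in 8.05%. The libraries did not overlap in 21 members, against 35.2% of all genes. Of the 13 calls, those of Norad, Snhg18, ENSMUSG00000120913 and 4921531C22Rik held in all 20 alternative settings. The other 9 were each lost without at least 1 single library. Among the 13 calls, 4921531C22Rik, Gm17501 and ENSMUSG00000120482 passed the mean limit only through a group compared here, so the rule set part of theirs. The count itself rested on single libraries: it was 5 without PASMC replicate 1, 5 without PASMC replicate 2, 5 without BSMC replicate 1, 7 without BSMC replicate 3, 8 without total_SMC replicate 3 and 24 without BSMC replicate 2. The split of calls also moved with scaling, to 2 higher and 15 lower with quantile normalization, 2 and 14 with cyclic loess, and 3 and 2 with implied reads left unscaled. Of all genes 26.1%, 25.9% and 16.5% were called in these settings, in either direction. BSMC replicate 2 was the lowest of the 3 BSMC libraries in 27 members and the highest in 17.

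**Figure D2:**
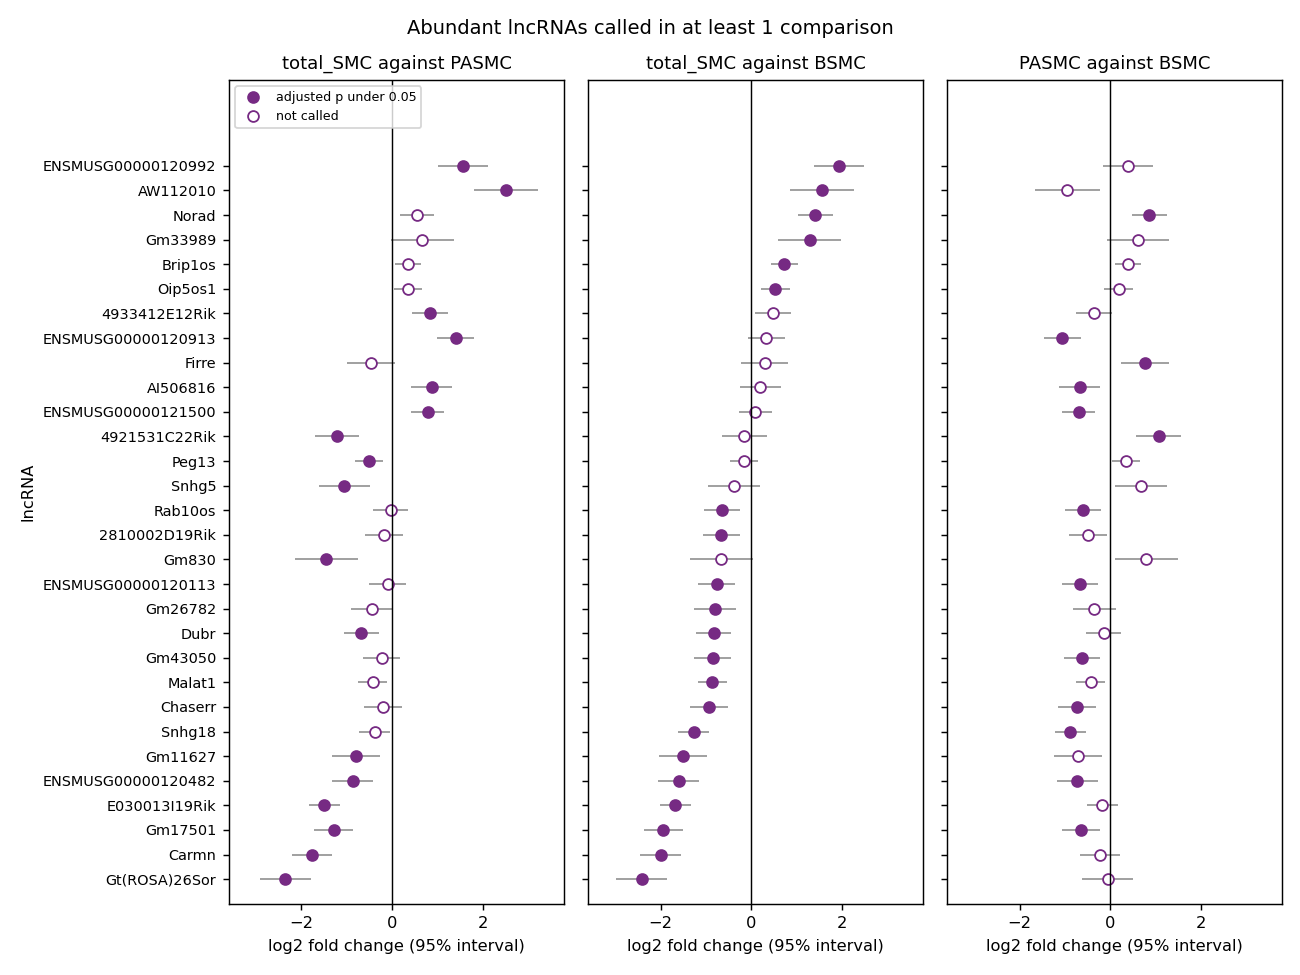
Log2 fold changes with 95% intervals (lines) of the 30 lncRNAs called in at least 1 comparison, ordered by total_SMC against BSMC, with filled points for an adjusted p under 0.05. The lowest rows, from Gt(ROSA)26Sor to Dubr, lie left of 0 in the first and second panel, and 2 calls in the third panel pass 2-fold.

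Carmn, the smooth muscle lncRNA named above, was at 233, 329 and 271 normalized reads in total_SMC, 843, 816 and 1214 in PASMC and 1063, 928 and 1353 in BSMC. Every total_SMC library lay below every PASMC and BSMC library, whereas PASMC and BSMC overlapped. Carmn fell by 1.77 on the log2 scale in total_SMC against PASMC (SE 0.20, limma adjusted p = 0.000158) and by 2.00 against BSMC (adjusted p = 2.72e-05). PASMC against BSMC was not called, at a log2 fold change of -0.23 with a 95% interval of -0.67 to 0.22. Of the 9 smooth muscle markers, 3 fell in total_SMC against PASMC and 6 fell against BSMC, where 6.83% and 18.2% of all genes fell. A link between these markers and Carmn was not tested.

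Neighbours of Carmn were looked at after its values were seen. Il17b, which encodes a cytokine, was at 33, 22 and 22 in total_SMC, 45, 51 and 57 in PASMC and 125, 111 and 109 in BSMC. It fell in total_SMC against PASMC (log2 fold change -0.98, limma adjusted p = 0.0398) and against BSMC (-2.14, adjusted p = 0.000189). Pcyox1l fell too, to 334, 245 and 263 in total_SMC, against 431, 492 and 463 in PASMC and 565, 663 and 737 in BSMC. The row Mir145a held 1, 4 and 2 reads in total_SMC, 9, 6 and 13 in PASMC and 20, 15 and 12 in BSMC. The row Mir143 held 4, 6 and 3 reads in total_SMC, 6, 4 and 4 in PASMC and 2, 8 and 4 in BSMC, so its groups overlapped, and it was too low to enter the test. Such reads do not measure the mature microRNA, which is too short for this kind of library.

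Dubr, a lncRNA known from mouse skeletal muscle differentiation, was at 172, 215 and 201 in total_SMC, 312, 293 and 334 in PASMC and 375, 294 and 375 in BSMC. It fell in total_SMC against PASMC (log2 fold change -0.68, limma adjusted p = 0.0214) and against BSMC (-0.82, adjusted p = 0.00357). The call against PASMC was lost without either of total_SMC replicates 1 and 3 or without any single PASMC library, with adjusted p up to 0.0956.

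Fendrr, which is transcribed near Foxf1 and is needed for mouse heart and lung development, was not called in any comparison. Its values were 251, 291 and 232 in total_SMC, 292, 641 and 365 in PASMC and 303, 200 and 335 in BSMC. PASMC replicate 2 stood far above the other libraries. Foxf1 itself, a transcription factor of lung mesenchyme, averaged 2150 ± 226 in total_SMC, 1787 ± 136 in PASMC and 2116 ± 205 in BSMC (SD, n = 3 each) and was not called either.

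Chaserr is known in mouse to hold down Chd2, a chromatin remodeller encoded next to it. It was at 437, 510 and 428 in total_SMC, 505, 509 and 561 in PASMC and 1011, 626 and 1041 in BSMC. The BSMC libraries lay above all others, with replicate 2 nearest to them. Chaserr fell in total_SMC against BSMC (log2 fold change -0.93, SE 0.19, limma adjusted p = 0.00301) and in PASMC against BSMC (-0.73, adjusted p = 0.0209), and was not called in total_SMC against PASMC (-0.20, 95% interval -0.62 to 0.23). The call in PASMC against BSMC was lost without PASMC replicate 1 or 2 or without BSMC replicate 1 or 3, with a limma adjusted p of up to 0.0818 over 20 alternative settings. Chd2 held 270, 378 and 292 in total_SMC, 352, 301 and 332 in PASMC and 241, 272 and 258 in BSMC, with no call in any comparison (limma adjusted p from 0.161 to 0.843). Both genes overlap on the same strand in the table, so reads in the shared stretch may have been split or dropped.

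Oip5os1, also called Cyrano, carries a highly complementary site for miR-7 and is known to trigger the decay of that microRNA. It was at 1155, 1552 and 1553 in total_SMC, 1190, 1075 and 1045 in PASMC and 1019, 885 and 1016 in BSMC. Oip5os1 rose in total_SMC against BSMC (log2 fold change 0.53, limma adjusted p = 0.012), a call that was lost in 4 of 20 alternative settings, without total_SMC replicate 2 or 3 among them (limma adjusted p up to 0.0632). It was not called in the other comparisons. The site was located in its longest GENCODE M21 transcript, 8300 bases long, at bases 2935 to 2959. It and the microRNA (from RefSeq, GRCm38.p6) are shown to let the pairing be read. Capitals mark the seed, bases 2 to 8, in the microRNA and the bases that pair in the site, written as DNA.
miR-7a-5p: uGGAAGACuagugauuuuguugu
Oip5os1 site: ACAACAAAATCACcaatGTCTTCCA

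Beyond the seed match, 13 bases paired after an unpaired stretch of 4. A match to the seed was present in 14.4% of 2470 lncRNA transcripts searched, and 1 of them, Oip5os1, paired as many bases beyond it, with at most 8 in any other. The level of miR-7 was not measured.

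The list of developmental and muscle lncRNAs holds Carmn, Fendrr, Dubr, Oip5os1 and Chaserr among 14 tested. It had 1 higher and 3 lower in total_SMC against PASMC, where 9.39% of all genes were called higher and 6.83% lower. It had 2 higher and 8 lower in total_SMC against BSMC, with a median log2 fold change of -0.87 against 0.05 over all genes, where 41.9% of all genes were called, 23.7% higher and 18.2% lower. In PASMC against BSMC it had 1 higher and 2 lower, and 1 and 0 with unscaled implied reads. Of all genes, 13.2% were called higher and 8.88% lower in the main fit of PASMC against BSMC.

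Among nuclear and structural lncRNAs, Malat1, the RNA of nuclear speckles, was at 813, 982 and 761 in total_SMC, 1181, 1070 and 1164 in PASMC and 1628, 1284 and 1733 in BSMC. The 3 groups did not overlap. Malat1 fell in total_SMC against BSMC (log2 fold change -0.86, SE 0.15, limma adjusted p = 0.000902), whereas total_SMC against PASMC (-0.42, adjusted p = 0.0757) and PASMC against BSMC (-0.43, adjusted p = 0.0551) were not called. Neat1, which scaffolds paraspeckles and lies near Malat1 on chromosome 19, was at 433, 775 and 438 in total_SMC, 553, 536 and 589 in PASMC and 630, 502 and 1027 in BSMC. It spread widely between replicates and was not called in any comparison.

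Norad is a mainly cytoplasmic RNA that binds Pumilio proteins, which repress messenger RNAs, and guards chromosome stability. It was at 932, 910 and 1084 in total_SMC, 752, 621 and 625 in PASMC and 373, 445 and 290 in BSMC. The groups did not overlap. Norad rose 2.64-fold in total_SMC against BSMC (log2 fold change 1.42, SE 0.18, limma adjusted p = 9.77e-05) and 1.80-fold in PASMC against BSMC (0.86, adjusted p = 0.00506). In total_SMC against PASMC it was not called, at 0.55 with a 95% interval of 0.17 to 0.93 and an adjusted p of 0.0532. The Pumilio motif TGTANATA, searched on the sense strand, occurred 11 times in its 4915 bases. That count ranked 2 among 2470 lncRNA transcripts, of which 15.0% held at least 1 motif. Other members held at most 4.

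Firre, an X-linked RNA that takes part in chromosome contacts, was at 252, 291 and 249 in total_SMC, 392, 348 and 352 in PASMC and 158, 192 and 325 in BSMC. It rose in PASMC against BSMC (log2 fold change 0.76, limma adjusted p = 0.0433), a call that was lost in 13 of 20 alternative settings, among them those without any single library other than BSMC replicate 3 (limma adjusted p up to 0.145). Y-linked genes (4 of 4 measured) summed to 236 to 385 per M in total_SMC, 263 to 350 in PASMC and 538 to 773 in BSMC, and the part of sex in this difference was not tested. Of the list of nuclear and structural lncRNAs, which holds Norad although it is mainly cytoplasmic, 7 were tested. In total_SMC against PASMC limma called 0 of them, with 1 higher and 2 lower at an unadjusted p under 0.05. In total_SMC against BSMC Norad rose and Malat1 fell, and in PASMC against BSMC 2 rose, Norad and Firre, against 1 higher and 1 lower with quantile normalization or cyclic loess. Of 3 lncRNAs listed for X inactivation and tested, 0 were called in total_SMC against PASMC or BSMC, also at an unadjusted p under 0.05, and Firre was the 1 called in PASMC against BSMC. Over all genes 16.2% were called in total_SMC against PASMC, 41.9% in total_SMC against BSMC and 22.1% in PASMC against BSMC. These shares are at the adjusted p, so they are no background for the unadjusted counts.

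Peg13 and Meg3 are imprinted lncRNAs, read from 1 parental copy. Peg13, the most abundant member, lies inside Trappc9 on the same strand in the table. It was at 1053, 1011 and 1102 in total_SMC, 1435, 1564 and 1505 in PASMC and 999, 1436 and 1130 in BSMC. The PASMC libraries were close together and above all total_SMC libraries. Peg13 fell in total_SMC against PASMC (log2 fold change -0.51, SE 0.14, limma adjusted p = 0.0281), a call lost in 8 of 20 alternative settings, among them those without any single total_SMC or PASMC library (limma adjusted p up to 0.157). Trappc9, which shares the strand, was at 1350, 1029 and 1331 in total_SMC, 1329, 1514 and 1049 in PASMC and 504, 1282 and 774 in BSMC, and was not called. Meg3, of the Dlk1 and Dio3 cluster, averaged 221 ± 57.5 in total_SMC, 213 ± 85.1 in PASMC and 215 ± 92.1 in BSMC (SD, n = 3 each), with no call and a 95% interval of -0.72 to 0.93 for total_SMC against PASMC. Of 8 imprinted lncRNAs tested, Peg13 was the call in total_SMC against PASMC and H19, below the mean of 200, was the call, lower, in total_SMC against BSMC. In PASMC against BSMC limma called 0 of them, with Peg13 higher at an unadjusted p under 0.05. The shares of all genes called were 16.2%, 41.9% and 22.1% in these comparisons, at the adjusted p.

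The members that host microRNAs are of interest through the seeds they share. By position on GRCm38.p6, Mir99ahg spans miR-99a, let-7c and miR-125b, and Mir100hg spans miR-100, let-7a and miR-125b, so the hosts carry related clusters. Mir22hg holds miR-22, and Meg3 spans miR-770 and miR-1906. The mature sequences below are from RefSeq, with the seed in capitals. The first and second share the seed ACCCGUA, and miR-125b-5p is encoded in both Mir99ahg and Mir100hg.
miR-99a-5p: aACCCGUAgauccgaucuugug
miR-100-5p: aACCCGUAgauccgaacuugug
miR-125b-5p: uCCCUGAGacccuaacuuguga
let-7c-5p: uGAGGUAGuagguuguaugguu
miR-22-3p: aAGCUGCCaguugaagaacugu

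Mir99ahg was at 201, 433 and 253 in total_SMC, 264, 245 and 187 in PASMC and 334, 300 and 240 in BSMC. Mir100hg was at 263, 248 and 180 in total_SMC, 241, 255 and 236 in PASMC and 427, 297 and 177 in BSMC. Mir22hg was at 693, 624 and 618 in total_SMC, 706, 741 and 626 in PASMC and 893, 793 and 610 in BSMC. The groups overlapped in all of these hosts, and limma called 0 of them in any comparison, also at an unadjusted p under 0.05. For Mir22hg the 95% intervals of the log2 fold change were -0.45 to 0.25 in total_SMC against PASMC, -0.58 to 0.12 in total_SMC against BSMC and -0.48 to 0.22 in PASMC against BSMC. Host reads say nothing of the mature microRNAs, whose levels were not measured. Carmn, whose values are given above, is also on the list of hosts, of which 13 were tested with limma. In total_SMC against PASMC 0 rose and 1 fell, Carmn. In total_SMC against BSMC 1 rose and 3 fell, Carmn among them. In PASMC against BSMC 0 rose and 2 fell, and 1 rose with quantile normalization. Over all genes 16.2%, 41.9% and 22.1% were called in these comparisons. At an unadjusted p under 0.05 the counts of hosts were 2 and 1, 1 and 3, and 1 and 2, for which the shares at the adjusted p are no background.

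Snhg18, Gas5 and Snhg5 host snoRNAs, which guide the modification of ribosomal and other RNAs. Snhg18 was at 588, 586 and 520 in total_SMC, 804, 651 and 767 in PASMC and 1472, 1110 and 1531 in BSMC. The groups did not overlap, and the BSMC libraries stood well above the rest. Snhg18 fell in total_SMC against BSMC (log2 fold change -1.27, SE 0.16, limma adjusted p = 9.3e-05) and in PASMC against BSMC (-0.88, adjusted p = 0.00221), and was not called in total_SMC against PASMC (-0.39, adjusted p = 0.124). Snhg5 was at 203, 253 and 125 in total_SMC, 325, 404 and 442 in PASMC and 260, 199 and 274 in BSMC. It fell in total_SMC against PASMC (log2 fold change -1.05, limma adjusted p = 0.0157), and that call was lost without total_SMC replicate 3 or without PASMC replicate 2 or 3, with a limma adjusted p of up to 0.068. Gas5, whose RNA is unstable while translation runs, averaged 562 ± 122.0 in total_SMC, 571 ± 67.1 in PASMC and 669 ± 174 in BSMC (SD, n = 3 each), with no call.

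Over 20 snoRNA hosts tested with limma, 0 rose and 1 fell in total_SMC against PASMC, 0 rose and 8 fell in total_SMC against BSMC, and 0 rose and 3 fell in PASMC against BSMC. Over all genes 16.2%, 41.9% and 22.1% were called in these comparisons, and 6.83%, 18.2% and 8.88% fell, so the share of hosts called in total_SMC against BSMC was close to the background, with all calls in 1 direction. At an unadjusted p under 0.05 the counts of hosts were 1 and 4, 0 and 9, and 1 and 7. The shares of all genes above are at the adjusted p, so they are no background for these counts. The median log2 fold change of the list was -0.28, -0.86 and -0.31 in these comparisons, against 0.03, 0.05 and 0.05 over all genes. The list median kept its sign under quantile normalization, cyclic loess and unscaled implied reads, where 4 to 8 hosts fell in total_SMC against BSMC. Beside Snhg18, the hosts that fell in total_SMC against BSMC were Dancr, Snhg10, Epb41l4aos, Snhg20, Snhg1, Zfas1 and Snhg16.

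Gt(ROSA)26Sor, the transcript of the Rosa26 locus into which reporters are commonly inserted, was at 95, 147 and 207 in total_SMC, 600, 832 and 794 in PASMC and 890, 771 and 650 in BSMC. The total_SMC libraries lay far below the others, and PASMC and BSMC overlapped. It fell by 2.36 on the log2 scale in total_SMC against PASMC (SE 0.26, limma adjusted p = 0.000116) and by 2.41 against BSMC (adjusted p = 3.81e-05), whereas PASMC against BSMC was not called (-0.06, 95% interval -0.62 to 0.51). PASMC and BSMC come from lines with the R26-GFP reporter at this locus, and the genotype label of total_SMC names no such reporter, so a difference between cells and one between alleles cannot be told apart. Setd5, which starts 32 bp away on the opposite strand, and Thumpd3, which overlaps it, were not called in any comparison.

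AW112010, which is induced by interferon and by bacterial products in mouse immune cells and has been described as giving a protein product, was at 556, 724 and 608 in total_SMC, 77, 100 and 167 in PASMC and 325, 142 and 202 in BSMC. All total_SMC libraries lay above all others, and it passed the mean of 200 only through them. It rose 5.49-fold in total_SMC against PASMC (log2 fold change 2.51, SE 0.33, limma adjusted p = 0.000341) and 2.82-fold against BSMC (1.57, adjusted p = 0.00299). PASMC against BSMC was not called (-0.95, limma adjusted p = 0.0569). In total_SMC against PASMC, 7 of 10 leukocyte markers rose and 1 fell. Of the other lists, 6 of 6 mesothelial, 6 of 9 endothelial, 4 of 10 fibroblast and 4 of 4 tested erythroid markers rose there. In total_SMC against BSMC 0 leukocyte markers rose and 10 fell, and 3 erythroid markers fell. There 5 mesothelial, 3 endothelial and 6 fibroblast markers rose. Of 10 epithelial markers 2 rose and 4 fell in both comparisons. The part of these cell types in the AW112010 difference was not tested. Of 7 listed stress and immune lncRNAs tested, AW112010 and Gm20559 rose in total_SMC against PASMC. In total_SMC against BSMC the same 2 rose and 2 fell, Dleu2 and Bvht, which are also on the developmental list, and the list median was -0.62 on the log2 scale, against 0.05 over all genes. In PASMC against BSMC 1 fell, Morrbid. Of all genes, 9.39% were called higher and 6.83% lower in total_SMC against PASMC. These shares were 23.7% and 18.2% in total_SMC against BSMC, and 13.2% and 8.88% in PASMC against BSMC.

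**Figure D3:**
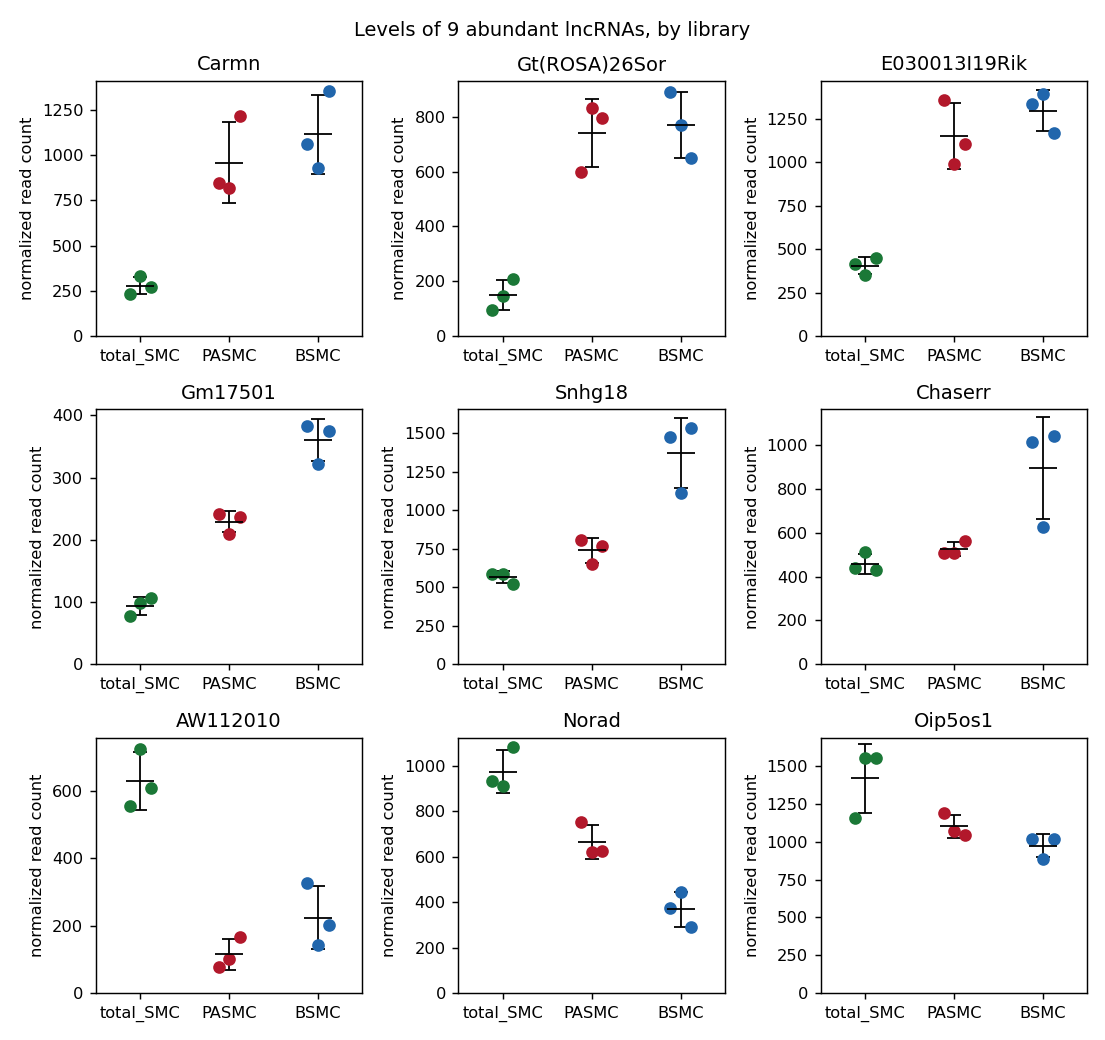
Normalized read counts of 9 lncRNAs in each library (points), with the mean (bar) and SD (whiskers) of the 3 libraries of total_SMC, PASMC and BSMC. Carmn, Gt(ROSA)26Sor and E030013I19Rik are low in total_SMC, Snhg18 and Chaserr are high in BSMC, and AW112010 and Norad are highest in total_SMC.

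Among members without a known role here, E030013I19Rik was the fourth most abundant, at chr2:12305757-12317126 on the plus strand of mm39, where it overlaps Itga8 on the opposite strand. It was at 414, 353 and 451 in total_SMC, 1358, 989 and 1109 in PASMC and 1335, 1394 and 1169 in BSMC. The total_SMC libraries lay far below the others. It fell to 0.352 of the PASMC mean in total_SMC (limma adjusted p = 8.42e-05) and by 1.68 on the log2 scale against BSMC (adjusted p = 1.38e-05). Itga8, an integrin subunit of contractile mesenchymal cells, was at 7983, 6855 and 9061 in total_SMC, 10147, 8994 and 9087 in PASMC and 6752, 8923 and 5389 in BSMC, and was not called. Strand use in the counting is not given in the sources used here and the kit does not mark strand, so reads of overlapping opposite genes cannot be told apart.

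Gm17501 starts 331 bp from Ccn1, a matrix protein gene, on the opposite strand. It was at 77, 98 and 106 in total_SMC, 242, 210 and 236 in PASMC and 383, 321 and 375 in BSMC. The 3 groups did not overlap, and it passed the mean of 200 only through BSMC. Gm17501 fell in total_SMC against PASMC (log2 fold change -1.29, SE 0.19, limma adjusted p = 0.000815), in total_SMC against BSMC (-1.94, adjusted p = 2.26e-05) and in PASMC against BSMC (-0.65, adjusted p = 0.0352). The call in PASMC against BSMC was lost in 9 of 20 alternative settings, among them those without total_SMC replicate 3, any PASMC library, or BSMC replicate 1 or 3 (limma adjusted p up to 0.142). Ccn1 was at 3539, 3312 and 4024 in total_SMC, 3731, 3447 and 3812 in PASMC and 4388, 3471 and 5057 in BSMC and was not called. The promoter of Gm17501 is shown because it lies on the side of Ccn1. This window is set on a RefSeq start in GRCm38.p6, so the distance of 331 bp, from mm39, may not apply to it. Where it lies against the Ccn1 start, and which gene its motif belongs to, was not tested. The sequence is chr3:145649827-145650126 on the plus strand of GRCm38.p6, with a match to TATAAA read on the opposite strand in capitals.
Gm17501 promoter: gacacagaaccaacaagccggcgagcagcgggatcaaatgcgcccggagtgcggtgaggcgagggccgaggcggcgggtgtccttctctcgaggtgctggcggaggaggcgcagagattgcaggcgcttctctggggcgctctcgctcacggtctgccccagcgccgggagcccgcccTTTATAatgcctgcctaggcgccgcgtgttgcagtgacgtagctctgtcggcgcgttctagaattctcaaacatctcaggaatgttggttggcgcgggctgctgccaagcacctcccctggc

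Promoters of 37 members were found, 43 windows in all, from 250 bases before to 50 after a start. Motifs were chosen after values were seen and searched on both strands: TATAAA in 14.0% of the members' windows and 13.6% of 32851 windows of all genes, the CArG box in 4.65% and 1.63%, a pair of TTTC runs set 2 bases apart in 2.33% and 3.44%, and TTCNNNGAA in 9.30% and 8.30%. The CArG box, the site of serum response factor, was in windows of E430024I08Rik and Meg3, which is 2 of 43. The median ratio of observed to expected CpG was 0.66 in the members' windows and 0.38 over all windows. A match describes letters only.

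Further members without a known role were called too. Gm830 was at 373, 351 and 523 in total_SMC, 1440, 1096 and 888 in PASMC and 522, 1155 and 446 in BSMC, and fell in total_SMC against PASMC (log2 fold change -1.45, limma adjusted p = 0.00852). BSMC replicate 2 lay within the PASMC range. The lncRNA 4921531C22Rik was at 205, 166 and 192 in total_SMC, 333, 423 and 590 in PASMC and 180, 241 and 207 in BSMC. PASMC libraries lay above all others and alone carried it past the mean of 200, and it fell in total_SMC against PASMC (-1.22, limma adjusted p = 0.00298) and rose in PASMC against BSMC (1.07, adjusted p = 0.00642). Gm11627 was at 173, 159 and 119 in total_SMC, 237, 244 and 301 in PASMC and 522, 299 and 495 in BSMC and fell in total_SMC against BSMC (-1.51, limma adjusted p = 0.00057). Its call in total_SMC against PASMC (-0.80, limma adjusted p = 0.044) was lost in 8 of 20 alternative settings, among them those without any single total_SMC or PASMC library (limma adjusted p up to 0.189).

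Of the 8 members known by identifier only, ENSMUSG00000120992 was at 552, 936 and 606 in total_SMC, 185, 222 and 295 in PASMC and 144, 170 and 221 in BSMC. It lies at chr17:35215654-35219393 on the minus strand of mm39 and starts 570 bp from Vars, a transfer RNA synthetase gene, on the opposite strand. It rose 2.98-fold in total_SMC against PASMC (log2 fold change 1.56, limma adjusted p = 0.00135) and 3.91-fold against BSMC (1.95, adjusted p = 0.000144). ENSMUSG00000120913 was at 323, 306 and 294 in total_SMC, 109, 108 and 132 in PASMC and 283, 225 and 226 in BSMC. It passed the mean of 200 only through its high total_SMC values, so the rule set part of the next difference. PASMC libraries were the lowest by a wide margin, and it rose in total_SMC against PASMC (1.40, limma adjusted p = 0.000384) and fell in PASMC against BSMC (-1.06, adjusted p = 0.00202). ENSMUSG00000120482 was at 129, 123 and 114 in total_SMC, 247, 181 and 250 in PASMC and 427, 299 and 400 in BSMC, and fell in total_SMC against PASMC (-0.87, limma adjusted p = 0.0136), in total_SMC against BSMC (-1.60, adjusted p = 0.000139) and in PASMC against BSMC (-0.73, adjusted p = 0.0292). This member passed the mean of 200 only through BSMC, so the rule set part of its differences from BSMC. Its call in total_SMC against PASMC was lost without total_SMC replicate 3, PASMC replicate 1 or PASMC replicate 3 (limma adjusted p up to 0.0628), and that in PASMC against BSMC without PASMC replicate 1 or 2 or BSMC replicate 1 or 3 (up to 0.121).

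Smaller calls with higher values in total_SMC were Brip1os at 947, 1035 and 985, against 775, 777 and 779 in PASMC and 533, 687 and 574 in BSMC, which rose against BSMC (log2 fold change 0.73, limma adjusted p = 0.00131). Gm33989 was at 547, 735 and 734 in total_SMC and 279, 453 and 159 in BSMC and rose too (1.29, limma adjusted p = 0.00745). AI506816, ENSMUSG00000121500 and 4933412E12Rik rose in total_SMC against PASMC by 0.87, 0.79 and 0.83 on the log2 scale. The PASMC libraries of ENSMUSG00000121500 were the lowest, at 163, 151 and 159, against 240, 279 and 253 in BSMC, a call in PASMC against BSMC as well (-0.70, limma adjusted p = 0.0125), lost without PASMC replicate 2 (limma adjusted p up to 0.135 over the alternatives). AI506816 fell in PASMC against BSMC (-0.67, limma adjusted p = 0.0383), and this call was lost in 12 of 20 alternative settings, without any single library other than PASMC replicate 2 among them (limma adjusted p up to 0.302). Its call in total_SMC against PASMC was lost in 3 settings, without total_SMC replicate 1 or PASMC replicate 3 among them (up to 0.105). Smaller calls with lower values were Gm43050, Rab10os and ENSMUSG00000120113, which fell in total_SMC against BSMC and in PASMC against BSMC, and Gm26782 and 2810002D19Rik, which fell in total_SMC against BSMC. Of these, the calls of Gm26782, 2810002D19Rik and Rab10os in total_SMC against BSMC were lost when a single library was left out: total_SMC replicate 1 for Gm26782 (limma adjusted p up to 0.0511), total_SMC replicate 2 or 3 or BSMC replicate 1 for 2810002D19Rik (up to 0.0985), and total_SMC replicate 1 or 2 for Rab10os (up to 0.0575). In PASMC against BSMC the calls of Gm43050, Rab10os and ENSMUSG00000120113 were lost without PASMC replicate 1 or 2 or BSMC replicate 1 or 3, and those of Gm43050 and Rab10os also without PASMC replicate 3 or total_SMC replicate 3 and that of Gm43050 without total_SMC replicate 2, with limma adjusted p up to 0.117, 0.140 and 0.112.

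A start within 1000 bp of a coding gene's start on the opposite strand, called head to head here, was found for 19 members, 35.8%, against 490 of 1155 other lncRNAs tested, 42.4%. In 13 of these pairs the genes ran apart without overlap. In total_SMC against BSMC, 2 pairs were called in the same direction, Snhg18 with Sema5a, a semaphorin of axon guidance, and ENSMUSG00000120992 with Vars, and 1 pair in opposite directions, 2810002D19Rik with Ttc17. In this comparison 10 of the 19 members and 9 of the 19 partners were called, against 41.9% of all genes. The fold changes had the same sign in 8 of the 19 pairs. Sema5a was at 499, 768 and 564 in total_SMC, 1006, 917 and 1023 in PASMC and 1085, 1024 and 860 in BSMC, so it fell in total_SMC against PASMC (log2 fold change -0.71, limma adjusted p = 0.0137) where Snhg18 was not called, and Snhg18 fell in PASMC against BSMC where Sema5a was not called. Rab30, a small GTPase, rose to an average of 326 in total_SMC, against 106 in PASMC and 107 in BSMC, while its partner 4632427E13Rik averaged 306 in total_SMC, 324 in PASMC and 405 in BSMC and was not called. Tbx5, a transcription factor of heart and lung mesoderm, was not called where its partner Gm43050 fell. In total_SMC against PASMC 0 pairs were called in the same direction and 0 in opposite directions, and in PASMC against BSMC 0 and 1. That pair was ENSMUSG00000120113, which fell, with Fam120a, which rose. In total_SMC against PASMC 5 members and 2 partners were called, against 16.2% of all genes, and 12 pairs had the same sign. For PASMC against BSMC these numbers were 5, 6, 22.1% and 5. Across the 19 pairs Pearson's r between both log2 fold changes was 0.20, 0.15 and -0.13 in total_SMC against PASMC, total_SMC against BSMC and PASMC against BSMC, a description over pairs measured in the same libraries.

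**Figure D4:**
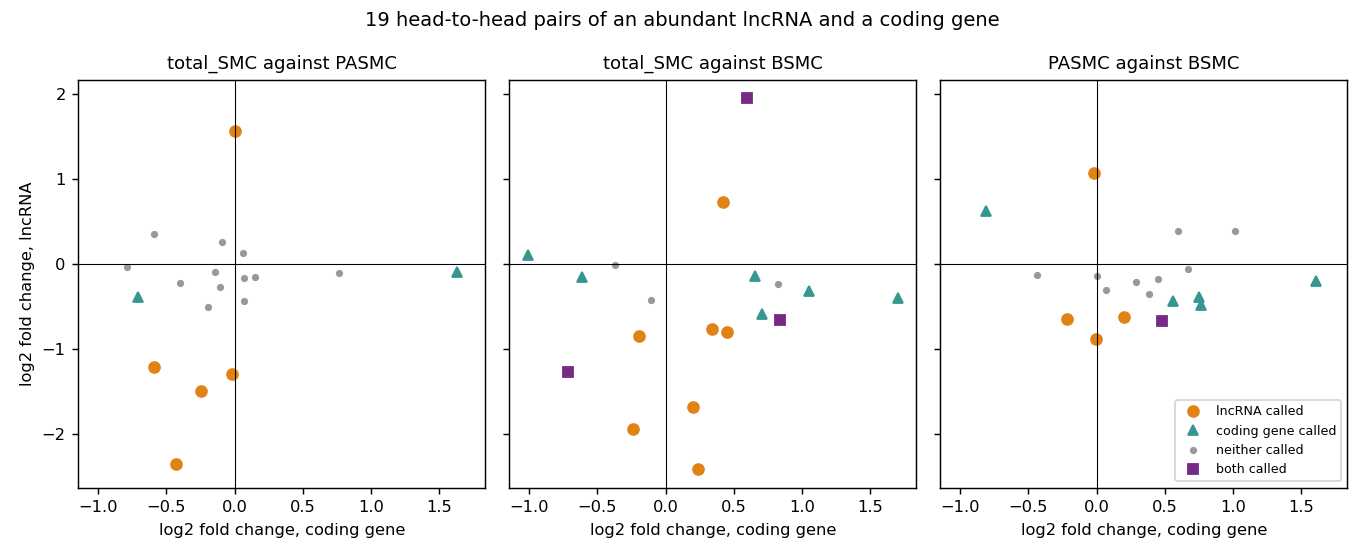
Log2 fold change of the lncRNA (vertical axis) against that of its coding partner (horizontal axis) in 19 head-to-head pairs, by comparison, with symbols for which of the pair was called. The 3 squares in the middle panel are pairs in which both were called, 2 in the same direction and 1 in opposite directions. The third panel has 1 such pair, in opposite directions.

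In all, 23 members had no call, 11 were called in 1 comparison, 17 in 2 and 2 in all 3. The same tally over all genes is not given here, so these numbers are a description. By comparison, 16.2%, 41.9% and 22.1% of all genes were called in total_SMC against PASMC, total_SMC against BSMC and PASMC against BSMC. The 23 include Mir22hg, Neat1, Gas5, Fendrr, Mir99ahg, Mir100hg and Meg3. A missing call is not a sign of equal levels. The members with the widest spread between replicates were Gm20300, Meg3, Gm46430 and Gm830, with an SD on the log2 scale of 0.60, 0.58, 0.52 and 0.50, and all but Gm830 are among the 23. Gm20300 was at 263, 310 and 317 in total_SMC, 378, 372 and 243 in PASMC and 541, 550 and 170 in BSMC, and Gm46430 was at 253, 349 and 307 in total_SMC, 210, 228 and 185 in PASMC and 229, 239 and 83 in BSMC. In both of these BSMC replicate 3 was the lowest library of all 9. ENSMUSG00000120984 spread the least among the 23, at 236, 257 and 261 in total_SMC, 250, 218 and 214 in PASMC and 232, 247 and 256 in BSMC.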

How the data were processed

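RNA was measured in 9 SMART-Seq v4 libraries. The deposited values, recorded with the unit score, were read counts per gene that the authors had normalized and rounded to whole numbers, as the spacing of the values shows. Per the submitters' processing notes, reads were handled on the build mm39 with DESeq2 1.36.0, featureCounts 2.0.4, Picard 3.1.1, STAR 2.7.11a and Trimmomatic 0.39, whose roles are not given. Library factors recovered from the spacing gave the implied reads per library, a step that was tested on simulated data. Since a factor under 1 merges counts, reads were not fully recovered and no count model was run.

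Genes that reached 10 in 3 or more libraries entered the test, 15647 in number, all 53 members among them. The test was limma 3.58.1 (R 4.3.3) on log2(value + 1), with 3 group means over 9 libraries, trend and robust options, and Benjamini-Hochberg adjustment over all genes tested. A fold change on this scale understates changes of low genes. The comparisons share libraries: each group enters 2 of the 3. Intervals are at 95% and come from the same fit, with no interval for single values. The script was tested on simulated data. Tables were made with Python 3.11.15, pandas 2.3.3 and matplotlib 3.10.9. Coordinates of genes are those of the table (mm39), whereas exon lengths, transcripts (GENCODE M21) and RefSeq sequences are on GRCm38.

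The members and gene lists were chosen with earlier results of these data known. Named were the 12 members with the highest mean, up to 8 called members in each direction without overlap, listed members, those at the limit, the 4 with the widest spread and head-to-head coding genes. Other genes named in the text, motifs and the search of transcripts were chosen after values were seen. The miR-7 search first allowed no unpaired stretch, and was then changed to allow one of up to 6 bases, with the published kind of site in mind.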

Additional observations from a re-analysis of the deposited data

How the results depend on the processing

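Each count was recomputed under 20 alternative settings. Of the called members, 11 of 17 in total_SMC against PASMC, 17 of 21 in total_SMC against BSMC and 4 of 13 in PASMC against BSMC (Norad, Snhg18, ENSMUSG00000120913 and 4921531C22Rik) were called in the same direction in all 20, and 0 called values reversed. The rule set part of some of these calls, as given above. The direction of uncalled values was not read. In total_SMC against PASMC, array weights gave 27 calls (10 higher, 17 lower) and a fit of these 2 groups alone gave 10 higher. The share of all genes called was 32.5% and 28.7% in these 2 settings. In PASMC against BSMC, the fit of 2 groups alone gave 4 calls (2 lower), unscaled implied reads 5 (2 lower) and array weights 6 higher. There the share of all genes called was 13.0%, 16.5% and 29.1%. Unscaled implied reads moved the median log2 fold change of all genes to 0.23 in total_SMC against BSMC and 0.27 in PASMC against BSMC, where the members' medians were -0.05 and 0.02, so relative to all genes the members were still lower. Leaving out 1 library gave 11 to 21 calls in total_SMC against PASMC (5 to 8 higher, 6 to 13 lower), 18 to 26 in total_SMC against BSMC (5 to 8 higher, 13 to 18 lower) and 5 to 24 in PASMC against BSMC (2 to 7 higher, 3 to 17 lower). The cause of these moves was not tested. Pseudocounts of 0.5 and 8, no filter, a filter of 50, quantile normalization, cyclic loess and a fit without trend and robust options kept each count within 1.5 times. Same-numbered libraries had correlations of deviations from -0.124 to 0.136. With 3 libraries a group this cannot show whether the numbers pair samples, and the labels do not say. With the replicate block the counts of called members were 16, 22 and 10. With 3 libraries a group, and BSMC the most variable, a missing call does not show equal levels.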
